A study of Mus musculus with 6 samples.

Results

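Histone genes were measured in the liver of male C57BL/6 mice aged 8 weeks, with 3 arrays of wild-type (WT) and 3 of HMGB2-KO animals. HMGB2 is a chromatin protein that bends DNA. The comparison asks which genes of the liver go with its expression. The 75 histone genes are the probe sets with 1 gene symbol that starts with Hist1h, Hist2h, Hist3h, Hist4h, H2af, H3f or H1f, out of 22203 probe sets with a symbol. Of these, 59 are Hist genes, called replication-dependent here, and 16 are H2af, H3f and H1f genes, called variants. The split is by symbol and not by function. The Hist genes include the pseudogenes Hist1h2al and Hist3h2bb-ps and the testis genes Hist1h1t, Hist1h2ba and Hist1h2aa. The variants include the pseudogene H2afy3. A further 7 probe sets carry a histone symbol joined to another symbol and are not members. No surgery or drug is named in the labels of the 6 livers, and the sources used here do not give how the Hmgb2 allele was made. The labels number the livers within a genotype without saying that each came from a separate mouse, so the spread behind each p-value is that of these samples and may be technical in part.

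DNA in the nucleus is wrapped around octamers of the core histones H2A, H2B, H3 and H4, and the linker histone H1 binds where DNA enters and leaves the octamer. Replication-dependent histone genes lie in clusters, mostly lack introns and are transcribed in S phase, and their mRNAs end in a stem-loop bound by SLBP in place of a poly(A) tail. Variant genes are expressed outside S phase as well, mostly as polyadenylated mRNAs, and most cells of an adult liver are not dividing. The labels name total RNA and a biotin labelling kit for cDNA, and the sources used here do not give how the cDNA was primed.

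The values are log2 expression values centred gene by gene, so that 0 is a reference level of each gene's own and the level of one gene cannot be set against that of another. That reference was not the median of these 6 arrays, since 8.33% of the probe sets, and 0 of the 75 histone genes, had a median of 0 over them (within 2e-06). The arrays were not on a common level either: medians over all probe sets ran from -0.05 to 0.01 in 5 arrays and reached 0.26 in WT replicate 2, whose SD over probe sets was 0.53 against 0.32 to 0.36 in the others. The median probe set stood at -0.12 in HMGB2-KO relative to WT (-0.01 with arrays centred on their medians), and changes of groups are given relative to it. Hmgb2 itself read 0.48, 0.62 and 0.38 in the WT livers and -0.70, -0.38 and -0.48 in the HMGB2-KO livers (replicates in the order 1, 2, 3, as in all such sentences). The groups did not overlap, and the change was -1.01 ± 0.15 (SE; limma unadjusted p 0.00019, adjusted p 0.469). Whether the Hmgb2 probes lie in a part of the gene that the allele alters is not known. Centring by gene also means that hepatocyte markers cannot be read as present or absent. Over 8 lists of liver and blood cell markers, 48 genes were measured, of which 0 were lower and 2 higher in the HMGB2-KO livers (unadjusted p under 0.05), where 4.85% of all probe sets were lower and 0.0721% higher. The 2 were the endothelial gene Pecam1 (0.43 ± 0.17 SE) and the bile duct gene Spp1 (0.55 ± 0.20 SE). The medians of their lists were 0.05 and 0.01 relative to the median probe set. As deposited, endothelial Lyve1 stood at 0.51, but Fcgr2b, Clec4g, Kdr and Stab2 stood at -0.20, -0.15, -0.12 and -0.03. Relative to the median probe set, Lyve1 was at 0.64 and Fcgr2b, Clec4g, Kdr and Stab2 at -0.08, -0.03, 0.0005 and 0.09. Of the bile duct genes, Krt19 stood at 0.03 as deposited, and Epcam, Sox9 and Krt7 at -0.42, -0.34 and -0.11. Relative to the median probe set, Krt19 was at 0.16 and Epcam, Sox9 and Krt7 at -0.29, -0.21 and 0.01.

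The promoters below are shown because they belong to the members on which the results turn. Hist1h2ac and Hist1h4c had the smallest p-values of the 75, Hist1h2ak had the largest positive change, and H2afz is a variant whose values lay low like those of the Hist genes. Each runs from 250 bases before to 50 bases after the gene's start in RefSeq's GRCm38.p6 annotation, 5′ to 3′ along the gene's strand. Capitals mark 3 motifs on either strand. The first is the CCAAT box, searched by those letters. The second is the TATA box, searched as TATAAA. The third is the core of the octamer element described in H2B promoters, which was searched as TTTGCAT. The windows are chr13:23683910-23684209 (minus strand) for Hist1h2ac, chr13:23698409-23698708 (minus strand) for Hist1h4c, chr13:21753863-21754162 (minus strand) for Hist1h2ak and chr3:137864237-137864536 (plus strand) for H2afz.
Hist1h2ac: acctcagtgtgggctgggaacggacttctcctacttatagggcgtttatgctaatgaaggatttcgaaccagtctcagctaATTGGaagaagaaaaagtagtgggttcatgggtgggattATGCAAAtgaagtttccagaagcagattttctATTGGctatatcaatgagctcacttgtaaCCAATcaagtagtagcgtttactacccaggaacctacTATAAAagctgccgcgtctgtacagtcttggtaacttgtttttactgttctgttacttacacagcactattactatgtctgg
Hist1h4c: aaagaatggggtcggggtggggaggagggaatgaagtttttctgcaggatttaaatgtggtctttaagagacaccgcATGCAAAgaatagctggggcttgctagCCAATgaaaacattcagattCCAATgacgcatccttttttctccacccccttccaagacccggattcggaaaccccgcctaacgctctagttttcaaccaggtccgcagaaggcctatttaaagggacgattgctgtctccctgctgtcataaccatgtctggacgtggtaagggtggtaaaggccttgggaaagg
Hist1h2ak: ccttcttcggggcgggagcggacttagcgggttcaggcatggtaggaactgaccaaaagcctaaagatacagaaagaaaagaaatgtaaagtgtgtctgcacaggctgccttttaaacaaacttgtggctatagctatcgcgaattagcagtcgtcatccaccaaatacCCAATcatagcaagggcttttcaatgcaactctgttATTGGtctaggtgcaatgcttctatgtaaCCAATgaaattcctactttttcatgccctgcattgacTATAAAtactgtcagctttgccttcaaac
H2afz: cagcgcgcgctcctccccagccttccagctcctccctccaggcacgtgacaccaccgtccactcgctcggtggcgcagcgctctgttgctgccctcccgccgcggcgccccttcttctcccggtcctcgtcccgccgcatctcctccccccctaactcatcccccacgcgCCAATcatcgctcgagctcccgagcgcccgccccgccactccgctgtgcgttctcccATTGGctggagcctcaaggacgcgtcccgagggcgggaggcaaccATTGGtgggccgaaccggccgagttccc

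Hist1h2ac holds a TATA box that begins 32 bases before its start and a CCAAT box 69 bases before it. Hist1h4c holds CCAAT boxes 146 and 126 bases before its start and no exact TATAAA. In Hist1h2ak the CCAAT box nearest on the gene's own strand begins 16 bases before the annotated start, and TATAAA begins 21 bases after it. H2afz holds CCAAT on both strands and no TATAAA. RefSeq promoter windows were matched for 64 of the 75 genes. CCAAT on either strand was present in 44 of 51 replication-dependent genes and 9 of 13 variant genes, against 41.1% of the 27025 genes with a window. TATAAA was present in 29 of 51 and 1 of 13, against 15.7% of all genes. TTTGCAT was present in 13 of 51 and 1 of 13, against 5.24%. These are matches of letters in a fixed window and not tests of binding. By class, TATAAA was held by 3 of 5 H1, 10 of 14 H2A, 8 of 14 H2B, 2 of 8 H3 and 6 of 10 H4 genes, and TTTGCAT by 6 of 14 H2A and 6 of 14 H2B genes. CCAAT was held by 3 of 10 H4 genes and by every Hist gene with a window in the other 4 classes. Divergent H2A and H2B genes overlap in these windows, so that they share some of the matches.

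No histone gene differed between the genotypes past the adjusted threshold. In limma's fit over 22203 probe sets 0 passed a Benjamini-Hochberg adjusted p of 0.05 (0% of all probe sets), and the smallest adjusted p of a histone gene was 0.852. At an unadjusted p under 0.05, 2 of the 75 histone genes were lower in HMGB2-KO and 0 higher, where 4.92% of all probe sets had such a p, 4.85% lower and 0.0721% higher. None of the 75 also had a fold of at least 1.5, where 1.6% of all probe sets were lower and 0.018% higher by both criteria. The change was under 0 for 55 of the 75, where it was so for 77.4% of all probe sets. Genotypes did not overlap for 5 of the 75, all lower in HMGB2-KO, where 10.9% of all probe sets were separate and lower and 0.779% separate and higher. These 5 were Hist1h2ac, Hist2h2ac, Hist1h2bg, Hist1h4c and H2afj. As deposited, the shares on the lower side were thus 2.67% and 6.67% of the histone genes, and they rest on 2 and 5 genes. They lay below those of all probe sets, but this order was not kept in every setting. Without WT replicate 2, 5 of the 75 were lower at an unadjusted p under 0.05, against 2.48% of all probe sets. Without WT replicate 1, 23 of the 75 were separate and lower, against 19.5%. With arrays centred on their medians 2 histone genes were separate and lower and 5 separate and higher, against 5.57% and 4.22% of all probe sets. The 2 lower were Hist1h4c and Hist2h2ac, while Hist1h2ac, Hist1h2bg and H2afj then overlapped. The 5 higher were Hist1h1d, Hist1h2bp, H2afy, and Hist2h2aa1 and Hist2h2aa2, which hold the same 6 values. On centred arrays 0 were lower and 0 higher at an unadjusted p under 0.05, against 2.8% and 1.03%.

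**Figure D1:**
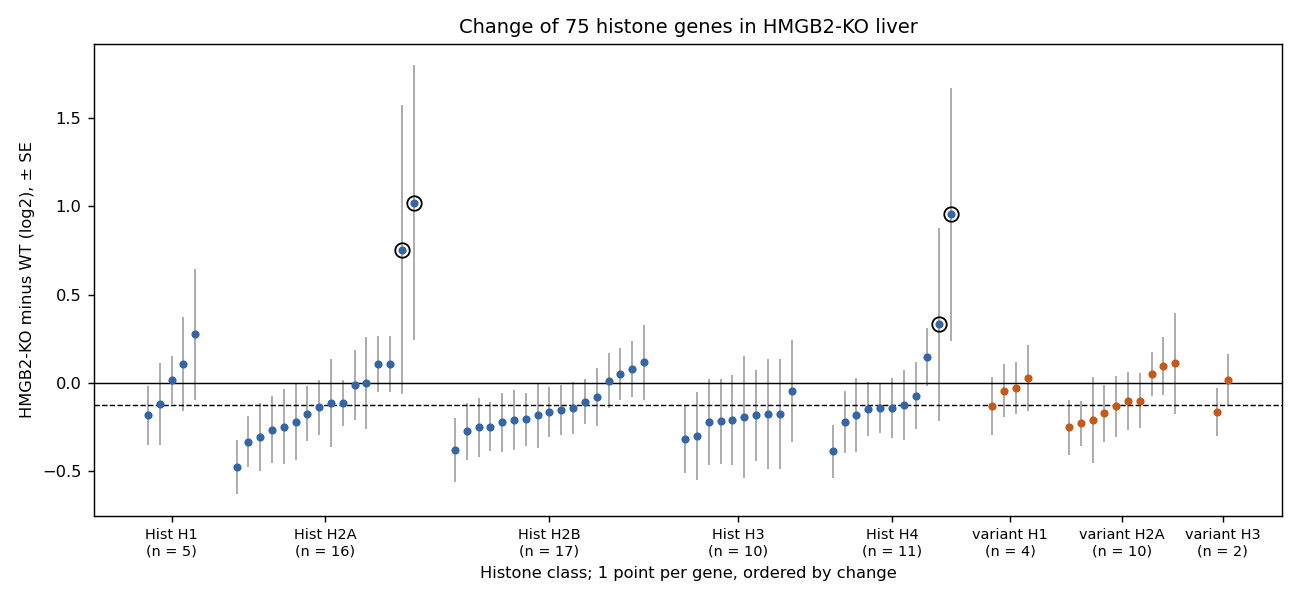
Change in HMGB2-KO relative to WT for each of the 75 histone genes (log2, vertical axis), grouped by class along the horizontal axis, with the standard error of limma's fit as bars. Blue points are replication-dependent genes and orange points are variants; the dashed line is the median probe set at -0.12 and the solid line is 0. The 4 ringed points are genes whose reading in WT replicate 2 lay more than 1.5 below all other arrays. Apart from them, changes ran from -0.48 to 0.28.

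Hist1h2ac, a replication-dependent H2A gene, had the smallest p of the 75. It read -0.13, -0.26 and -0.18 in WT and -0.44, -0.72 and -0.84 in HMGB2-KO. All 3 HMGB2-KO livers were below the lowest WT liver as deposited. With arrays centred on their medians the groups overlapped, since WT replicate 2 then lay below HMGB2-KO replicate 1. The change was -0.48 ± 0.15 (SE, n = 3 per genotype; limma unadjusted p 0.0149, adjusted p 0.852), and -0.36 (unadjusted p 0.063) with arrays centred. It kept its direction with each array left out, between -0.59 and -0.39. Its neighbour Hist1h2bc, an H2B gene, stood at 0.01 ± 0.15 (SE).

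Hist1h4c, an H4 gene, was the other member under an unadjusted p of 0.05. It read -0.40, -0.13 and -0.09 in WT and -0.47, -0.70 and -0.60 in HMGB2-KO. All 3 HMGB2-KO livers were lower, but WT replicate 1 lay closer to HMGB2-KO replicate 1 than to the other WT livers. The change was -0.39 ± 0.15 (SE; limma unadjusted p 0.0348, adjusted p 0.852), with an unadjusted p of 0.108 on centred arrays and 0.0673 without WT replicate 2.

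The 16 H2A genes of the replication-dependent set lay on both sides of the median probe set, 8 below it. Hist2h2ac read -0.47, -0.24 and -0.59 in WT and -0.74, -0.76 and -0.80 in HMGB2-KO, and the groups did not overlap (change -0.33 ± 0.15 SE; limma unadjusted p 0.0532). Hist1h2ah stood at -0.31 ± 0.19 (SE) and overlapped. Hist2h2aa1 and Hist2h2aa2 hold the same 6 values, as do Hist2h3c1 and Hist2h3c2, so the 75 genes amount to 73 distinct rows. Hist2h2aa1 stood at 0.11 ± 0.16 (SE). Hist1h2aa, which encodes the testis H2A named Th2a, stood at -0.11 ± 0.13. The probe set of Hist1h2ap repeats the values of one that also names Hist1h2ao, Hist1h2ai and Hist1h2ah, and signal of near-identical H2A genes cannot be told apart there.

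Among 17 H2B genes, 11 lay below the median probe set and none reached an unadjusted p under 0.05 as deposited. Hist2h2bb had the smallest p of them: it read -1.01, -1.17 and -0.71 in WT and -1.56, -1.36 and -1.12 in HMGB2-KO. HMGB2-KO replicate 3 lay within the WT range. Its change was -0.38 ± 0.18 (SE; limma unadjusted p 0.0721), and -0.48 (unadjusted p 0.0334) without WT replicate 2. Hist1h2bg read -0.42, -0.43 and -0.29 in WT and -0.70, -0.70 and -0.48 in HMGB2-KO without overlap, a change of -0.25 ± 0.14. Hist1h2ba, the testis H2B gene Th2b, stood at -0.27 ± 0.16 and Hist2h2be at -0.21 ± 0.17, or -0.15 and -0.07 without WT replicate 2. On the higher side, Hist1h2bn stood at 0.08 ± 0.16 and Hist3h2ba at 0.12 ± 0.21. Hist3h2bb-ps, annotated as a pseudogene, stood at -0.10 ± 0.13.

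The 10 H3 genes all stood below 0 in HMGB2-KO relative to WT as deposited, and 9 lay below the median probe set, while none reached an unadjusted p under 0.05. Their changes ran from -0.32 to -0.05, with standard errors of 0.19 to 0.35. Hist1h3f had the smallest p and stood at -0.32 ± 0.19 (SE), or -0.17 without WT replicate 2. Hist1h3a stood at -0.30 ± 0.25, or -0.04 without WT replicate 2, Hist1h3e at -0.22 ± 0.24 and Hist2h3c1 at -0.18 ± 0.31. The one above the median probe set was Hist1h3c, at -0.05 ± 0.29, and 0.23 without WT replicate 2. The median of the class was -0.08 relative to the median probe set. Leaving out WT replicate 1 gave -0.28 and leaving out WT replicate 3 gave 0.19, and its direction turned with the array left out.

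H4 is among the most conserved proteins known, and 7 of its 11 genes lay below the median probe set. After Hist1h4c, Hist1h4i stood at -0.22 ± 0.17 (SE) and Hist2h4 at -0.14 ± 0.14. Hist1h4k stood at 0.15 ± 0.16. Hist1h4a, at -0.07 ± 0.19, and Hist4h4, at -0.13 ± 0.20, lay near the median probe set.

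Linker histone genes numbered 5 in the replication-dependent set, and 1 of them lay below the median probe set. Hist1h1c, which encodes H1.2, read -1.23, -1.01 and -0.18 in WT and -0.78, -0.99 and 0.18 in HMGB2-KO. The livers numbered 3 were the highest of each genotype, and the groups overlapped (change 0.28 ± 0.37 SE, or -0.08 without HMGB2-KO replicate 3). Hist1h1t, a linker histone of testis, read -0.37, 0.62 and -0.21 in WT and 0.30, -0.09 and 0.16 in HMGB2-KO, a change of 0.11 ± 0.27 that became 0.41 (limma unadjusted p 0.0427, adjusted p 1.0) without WT replicate 2. Hist1h1a stood at -0.12 ± 0.23 and Hist1h1b at -0.18 ± 0.17.

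A single very low reading stood in 4 replication-dependent genes, each time in WT replicate 2. Hist1h2ak read -1.93, -4.31 and -0.86 in WT and -0.94, -1.94 and -1.16 in HMGB2-KO. Hist1h2af read -0.74, -4.13 and -0.82 in WT and -1.01, -1.28 and -1.13 in HMGB2-KO. Hist1h4b read -0.74, -3.40 and -0.30 in WT and -0.47, -0.74 and -0.37 in HMGB2-KO. In each, WT replicate 2 was far below the other 5 arrays. Hist1h4h read -0.06, -2.26 and -0.05 in WT and -0.50, -0.49 and -0.39 in HMGB2-KO, so that the remaining WT livers were above all 3 HMGB2-KO livers. These 4 genes gave the largest positive changes of the 75, at 1.02 ± 0.78 (SE) for Hist1h2ak, 0.96 ± 0.72 for Hist1h4b, 0.76 ± 0.82 for Hist1h2af and 0.33 ± 0.55 for Hist1h4h. Without WT replicate 2 they stood at 0.05, -0.01, -0.36 and -0.40, with the last 2 at unadjusted p-values of 0.0434 and 0.0188 (limma). WT replicate 2 lay more than 1.5 below all other arrays in 4 of 59 replication-dependent genes (6.78%) and 0 of 16 variants, where 0.847% of all probe sets did so. The corresponding number among the 75 was 0 on every other array.

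**Figure D2:**
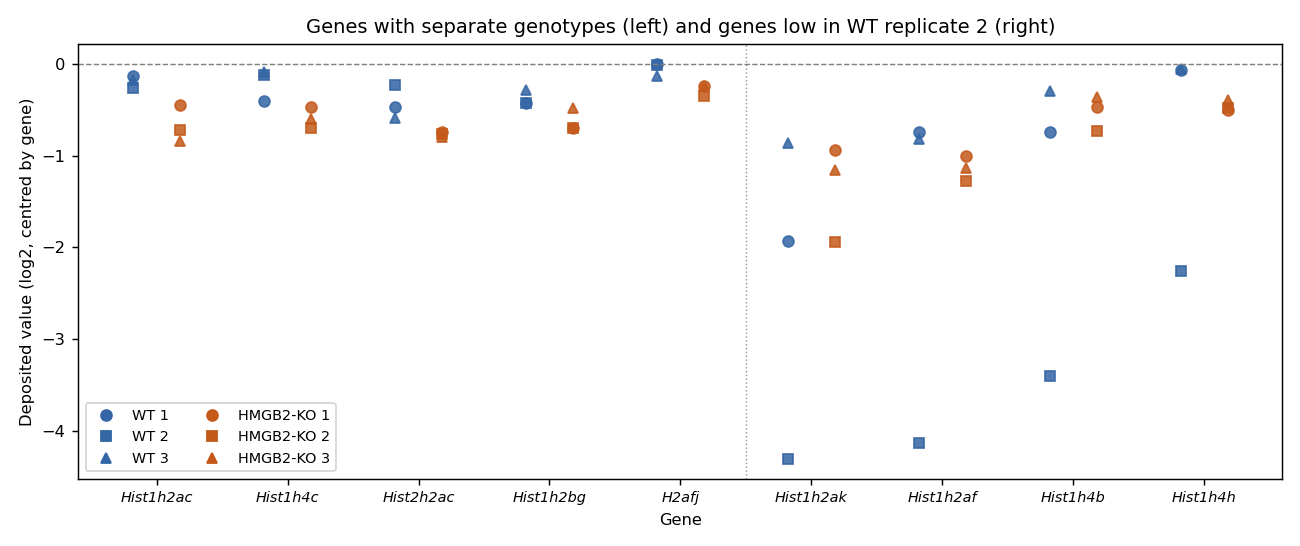
Deposited log2 values, centred by gene, on each of the 6 arrays for 9 histone genes. Blue symbols are WT and orange symbols HMGB2-KO, and circles, squares and triangles are replicates 1, 2 and 3. On the left are the 5 genes whose genotypes do not overlap, such as Hist1h2ac. On the right are the 4 genes whose WT replicate 2 reading (blue square) lies between -2.26 and -4.31, more than 1.5 below every other array.

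Without WT replicate 2, 5 histone genes were lower and 1 higher at an unadjusted p under 0.05, against 2.48% and 0.959% of all probe sets, and 0 passed the adjusted threshold in limma. The 5 were Hist1h2ac, Hist1h4h, Hist2h2bb, Hist1h2af and Hist1h2an, and the higher one was Hist1h1t. Separate genotypes were found for 9 lower and 6 higher histone genes without that array, against 12.5% and 5.98% of all probe sets. With arrays centred as well, 3 were lower and 1 higher at an unadjusted p under 0.05, against 1.86% and 1.39%. Array weights gave 5 lower and 1 higher, against 11.3% and 2.06%. Without WT replicate 1 in its place, 23 histone genes were separate and lower and 2 separate and higher, against 19.5% and 1.91%. Hist1h4c was not among the 5 lower without WT replicate 2. Hist1h2ac was the member common to both counts.

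Among the variants, none reached an unadjusted p under 0.05. The H2A variant H2afj read 0.00, -0.01 and -0.14 in WT and -0.24, -0.35 and -0.24 in HMGB2-KO (change -0.23 ± 0.13 SE; limma unadjusted p 0.118). It was the variant whose genotypes did not overlap as deposited, and they overlapped with arrays centred on their medians. H2afz and H2afv encode the 2 forms of H2A.Z, which marks promoters. H2afz read -1.07, -1.39 and -1.32 in WT and -1.38, -1.50 and -1.21 in HMGB2-KO, a change of -0.10 ± 0.15. H2afv stood at -0.13 ± 0.17. H2afx, whose protein is phosphorylated at DNA breaks, read -1.41, -2.19 and -1.09 in WT and -1.74, -1.36 and -1.26 in HMGB2-KO. Its genotypes overlapped (0.11 ± 0.29 SE, or -0.20 without WT replicate 2). The macroH2A genes H2afy and H2afy2 stood at 0.05 ± 0.13 and -0.25 ± 0.16. H2afy read between -0.09 and 0.02 on all 6 arrays as deposited. With arrays centred on their medians its genotypes were separate and higher in HMGB2-KO, at a change of 0.17 (limma unadjusted p 0.231).

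The H3.3 genes H3f3a and H3f3b, which supply H3 for deposition outside replication, stood at 0.02 ± 0.15 and -0.16 ± 0.14 (SE). Of the linker variants, H1f0, the H1 of non-dividing cells, stood at -0.04 ± 0.15, H1fx at 0.03 ± 0.19, the oocyte gene H1foo at -0.03 ± 0.15 and the testis gene H1fnt at -0.13 ± 0.17. The testis variants H2afb1 and H2afb2 stood at -0.17 ± 0.16 and 0.10 ± 0.16, and H2afy3, annotated as a pseudogene, at -0.10 ± 0.16. Each of these overlapped between genotypes.

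As groups, the replication-dependent genes had a median change of -0.03 and the variants of 0.02 relative to the median probe set. The difference of -0.05 was smaller than the spread of the same difference between replicates (SD 0.15). Below the median probe set lay 36 of 59 replication-dependent genes and 7 of 16 variants, where the median leaves 50% of all probe sets. Leaving out WT replicate 3 took the number of replication-dependent genes below it from 36 to 15 and their median to 0.13, while leaving out WT replicate 2 gave 42 and a median of -0.08. The variant median ran from -0.02 to 0.09 over the arrays left out in turn. These medians are descriptions with no test, and the members share arrays.

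**Figure D3:**
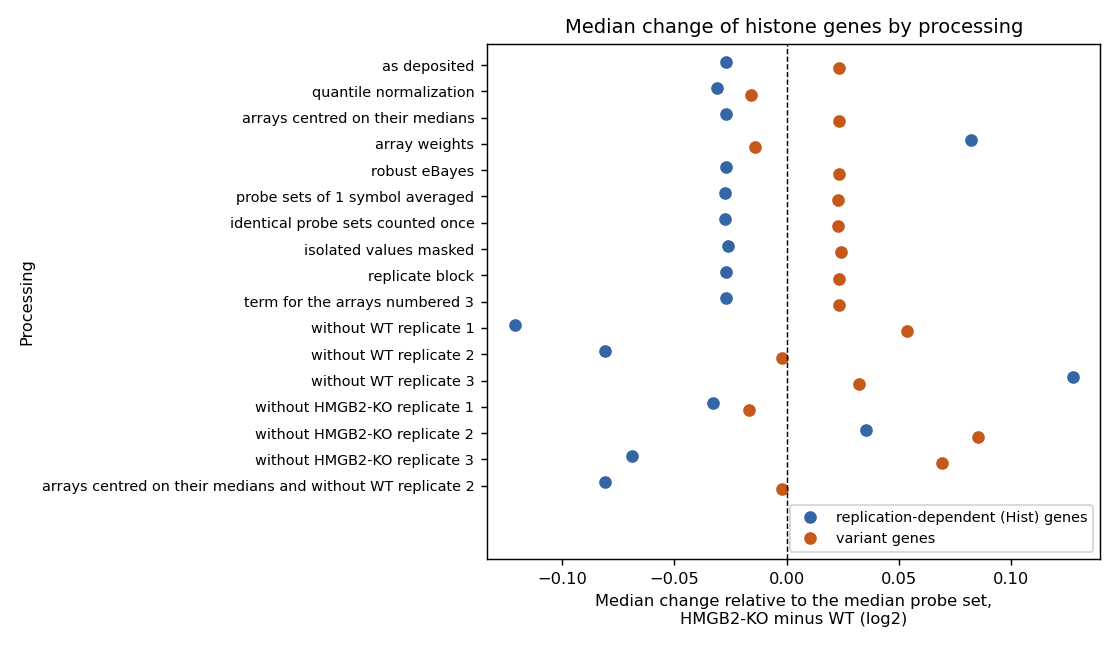
Median change of the replication-dependent genes (blue) and of the variants (orange) relative to the median probe set (log2, horizontal axis) under each way of processing the data (vertical axis). As deposited the medians are -0.03 and 0.02. The replication-dependent median moves between -0.12 (WT replicate 1 left out) and 0.13 (WT replicate 3 left out), on both sides of the dashed line at 0.

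Relative to their zero, replication-dependent genes lay low in both genotypes. All 6 arrays read below 0 in 48 of 59 of them and in 3 of 16 variants, where 5.84% of all probe sets did so. No histone gene read above 0 on all 6 arrays, which 4.47% of probe sets did. Below -0.5 on all 6 arrays were 7 of 10 H3 genes, 8 of 16 H2A genes, 1 of 17 H2B genes, 0 of 11 H4 genes and 0 of 5 H1 genes, against 0.712% of all probe sets. Hist1h3i, for example, read -2.20, -1.35 and -0.75 in WT and -1.65, -1.87 and -1.36 in HMGB2-KO. Among the variants, H2afx and H2afz lay below -0.5 on all 6 arrays, and H3f3b lay below 0 but no lower than -0.38. The sources used here do not name the samples that set the zero, so these values say only that these livers were below that reference.

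The 11 replication-dependent genes that were not below 0 on every array were Hist1h1c, Hist1h1t, Hist2h2ab, Hist1h2ba, Hist1h2bc, Hist2h2be, Hist3h2ba, Hist3h2bb-ps, Hist1h3a, Hist1h4d and Hist4h4. Hist1h2bc read from -0.14 to 0.24 and Hist4h4 from -0.43 to 0.17. They include all 3 genes outside the Hist1 and Hist2 clusters, Hist3h2ba, Hist3h2bb-ps and Hist4h4. Of the testis genes, Hist1h1t and Hist1h2ba are among them, while Hist1h2aa read below 0 on all 6 arrays, from -0.22 to -0.01.

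Livers of the same genotype differed in the level of the replication-dependent genes. Relative to each array's median, the median replication-dependent gene stood at -0.57, -0.70 and -0.34 in WT and at -0.56, -0.66 and -0.43 in HMGB2-KO. WT replicate 3 was above WT replicate 1 in 52 of 59 genes, by a median of 0.36, where 47.4% of all probe sets were higher in that array. It held the highest of the 6 readings in 35 of 59 genes and the lowest in 1. HMGB2-KO replicate 3 was above HMGB2-KO replicate 2 in 49 of 59, by a median of 0.17, where 50.8% of all probe sets were higher, and above HMGB2-KO replicate 1 in 32 of 59, by a median of 0.06, where 50.4% were. The spread was widest for H3: the class median was -1.69, -1.49 and -0.73 in WT and -1.24, -1.67 and -1.17 in HMGB2-KO. The variants stood at -0.05, -0.24 and -0.10 in WT and 0.01, -0.13 and -0.17 in HMGB2-KO, and WT replicate 3 was above WT replicate 1 in 5 of 16. The median SD within a genotype was 0.23 for replication-dependent genes, 0.15 for variants and 0.20 for all probe sets. Fewer cells in S phase and less histone mRNA per such cell cannot be told apart in whole liver.

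**Figure D4:**
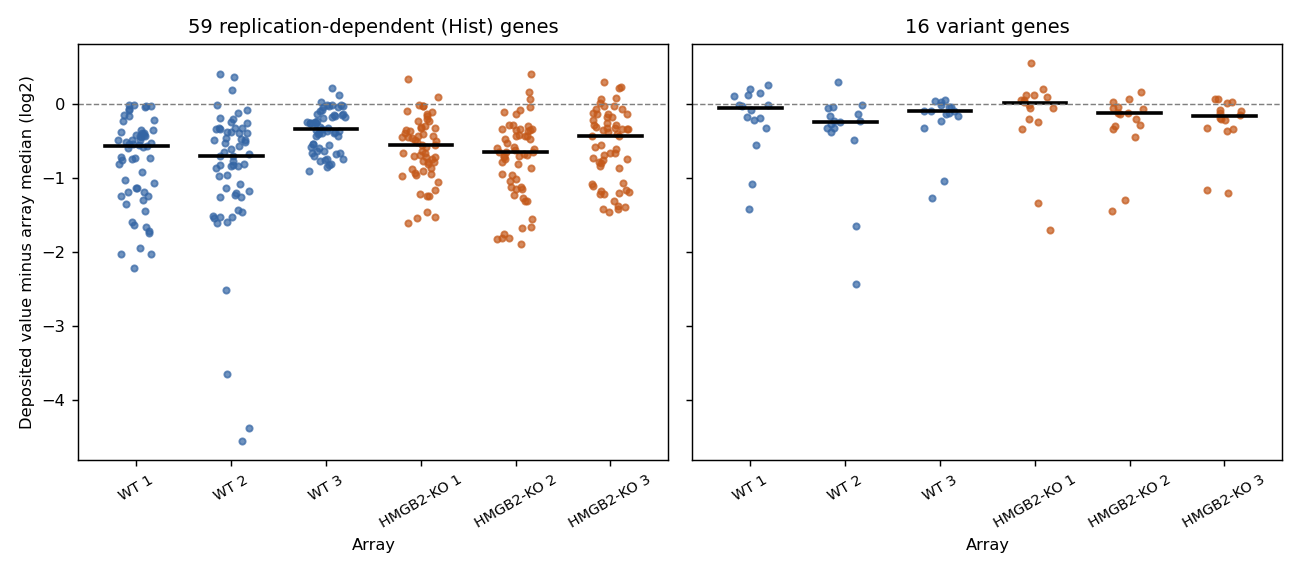
Deposited log2 value minus the array's median over all probe sets (vertical axis) on each array (horizontal axis) for the 59 replication-dependent genes (left) and the 16 variants (right). Each point is a gene, blue for WT and orange for HMGB2-KO, and black bars are medians. The replication-dependent medians lie between -0.70 and -0.34, and the variant medians between -0.24 and 0.01. The lowest readings on the left belong to WT replicate 2, and the low points on the right are H2afx and H2afz.

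Genes of S phase and DNA replication lay low over the arrays as well. The 23 measured members of that list had medians of -0.64, -0.68 and -0.51 in WT and -0.55, -0.74 and -0.44 in HMGB2-KO relative to array medians, and 17 of 23 read below 0 on all 6 arrays. Their part in the histone levels was not tested. Between genotypes 1 of 23 was lower and 0 higher at an unadjusted p under 0.05, a share near the 4.85% of all probe sets that were lower. It was Cdc6, which loads the replicative helicase, at -0.37 ± 0.13 (SE; limma unadjusted p 0.0229, adjusted p 0.852). Ccne2, a cyclin of S phase entry, stood at -0.30 ± 0.13. On the higher side, Ccne1 stood at 0.21 ± 0.22, or -0.02 without WT replicate 2, and Gins1 at 0.16 ± 0.17. The list's median was 0.01 relative to the median probe set.

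Genes that make and deposit histones did not pass the test either. Of 13 measured genes of histone transcription and mRNA processing, 0 reached an unadjusted p under 0.05 and the list's median was 0.04 relative to the median probe set. Slbp, whose protein binds the histone stem-loop, read -0.03, -0.13 and -0.18 in WT and -0.23, -0.49 and -0.61 in HMGB2-KO. Its genotypes did not overlap as deposited, where 10.9% of all probe sets were separate and lower. They overlapped with arrays centred on their medians, where WT replicate 2 lay below HMGB2-KO replicate 1. The change of Slbp was -0.33 ± 0.15 (SE; limma unadjusted p 0.0613, adjusted p 0.852). Casp8ap2, a factor of histone pre-mRNA cleavage, stood at -0.19 ± 0.14. Its genotypes were also separate and lower as deposited, and they overlapped with arrays centred. Npat, which drives histone transcription, stood at 0.04 ± 0.15 and Hinfp, an activator of H4 genes, at 0.01 ± 0.13. Of 21 chaperones and remodellers, 0 reached that p and the median was 0.01. The H2A.Z chaperone gene Anp32e read -0.20, -0.12 and -0.05 in WT and -0.49, -0.37 and -0.28 in HMGB2-KO, a change of -0.26 ± 0.13. Genotypes of Anp32e and of Nap1l4 in the same list were separate and lower as deposited, and both overlapped with arrays centred. Nasp, a chaperone of H1 and H3, stood at -0.34 ± 0.18. The H3.3 deposition genes Atrx and Daxx stood at 0.11 ± 0.17 and 0.02 ± 0.15. Cenpa, the centromeric H3 variant, which the symbol rule does not take in, read -1.65, -1.88 and -1.50 in WT and -1.84, -1.98 and -1.72 in HMGB2-KO, a change of -0.17 ± 0.16. It too was low on all 6 arrays. The spermatid linker-like gene Hils1 stood at -0.25 ± 0.16.

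Gene order was read from RefSeq's GRCm38.p6 annotation, which matched 73 of the 75 genes, 70 of them through a synonym. Of these, 46 lie on chromosome 13 and 11 on chromosome 3. The 45 matched Hist1 genes fall into blocks of 18 and 26 genes separated by more than 300000 bases, with Hist1h2al, annotated as a pseudogene, alone. The block from Hist1h2bl to Hist1h2bj had a median change of -0.05 relative to the median probe set, and that from Hist1h4h to Hist1h2aa, which holds Hist1h2ac and Hist1h4c, had -0.02.

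In the Hist1 clusters, H2A and H2B genes often start head to head, and 7 such pairs had both starts within 500 bases of each other. The members of a pair had changes within 0.17 of each other in 5 of 7 pairs. That limit was set after the values were seen and is about the size of their standard errors. Unpaired H2A and H2B genes were not compared, so it cannot be told whether such gaps are particular to pairs. For Hist1h2ae and Hist1h2bg, whose starts lie 180 bases apart, both changes were -0.25. The largest gap was that of Hist1h2ak, at 1.02, and Hist1h2bn, at 0.08, which stood at 0.05 and 0.05 without WT replicate 2. Hist1h2an stood at -0.26 ± 0.19 (SE) and its partner Hist1h2bp at 0.05 ± 0.15, or -0.41 and 0.15 without WT replicate 2. The low readings in WT replicate 2 thus touched 1 gene of the Hist1h2ak pair and not its neighbour: Hist1h2bn read -0.70, -0.58 and -0.31 in WT.

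**Figure D5:**
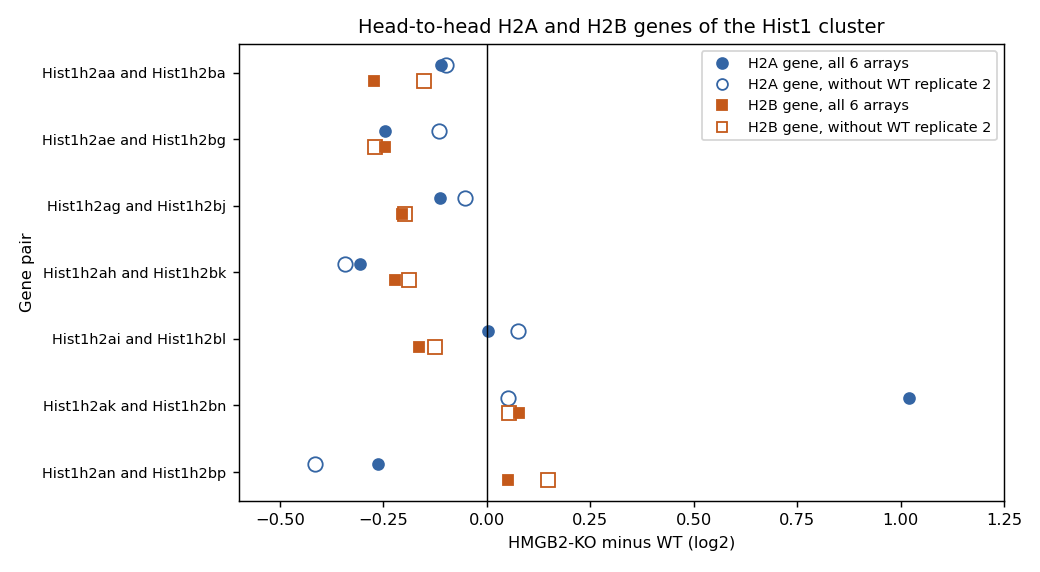
Change in HMGB2-KO relative to WT (log2, horizontal axis) of the H2A gene (blue circles) and the H2B gene (orange squares) in 7 head-to-head pairs of the Hist1 cluster. Filled symbols use all 6 arrays and open symbols leave out WT replicate 2. The Hist1h2ak change of 1.02 falls to 0.05 without that array, next to Hist1h2bn. All other changes lie between -0.41 and 0.15.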

How the data were processed

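Total RNA of 6 livers was hybridised to 1-colour Clariom S mouse arrays, with biotin labelling done in duplicate per the labels. The authors deposited 1 table of processed values, read here as log2 values centred gene by gene; the log base was inferred from their range. The sources used here do not give the software, the summarisation or the genome build. The value table of the series matrix holds the same values. The values keep no brightness. The number of arrays limits the precision.

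The genotypes were compared in R 4.3.3 with limma 3.58.1 (two-sided, lmFit then eBayes) on unaltered deposited values. Genotype was the only term, and Benjamini-Hochberg adjustment ran over all 22203 probe sets with a symbol (3 had none), at a threshold of 0.05. The fit was also run on simulated data with known changes, independent normal noise for each probe set and the arrays' median shifts. That simulation held no isolated low readings and no deviations shared by a group of genes. It thus does not show how the fit behaves where those occur. A change is HMGB2-KO minus WT. Medians of gene groups have no test.

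The members, gene lists and alternatives were chosen with earlier results of these data known. Named genes were up to 3 members of each class with the smallest p on either side of the median probe set, every member at an unadjusted p under 0.05, and well-known members. Genes outside this rule, among them Hist1h2an, Hist1h2ae, Hist1h2bp, Hist1h2bc, Hist1h2ap, Hist1h3i, Hist1h1d and Nap1l4, were named after their values were seen. 17 alternatives were run, among them a fit on the series matrix, which holds the same values.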

Additional observations from a re-analysis of the deposited data

How the results depend on the processing

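In all 17 alternatives 0 histone genes passed the adjusted threshold in limma, while array weights took 6 probe sets past it, none of them a histone gene. The alternative on the series matrix holds the same values as the main fit, so its result was fixed in advance. Histone genes lower at an unadjusted p under 0.05 numbered 2 as deposited, 1 after quantile normalization and 0 with arrays centred. They numbered 5 with array weights and 1 to 5 with an array left out. Of all probe sets, 4.85% were lower as deposited, 2.8% with arrays centred, 11.3% with array weights and 2.48% without WT replicate 2. Higher ones numbered 0 as deposited, 1 with array weights and 1 with arrays centred and WT replicate 2 left out. With an array left out they numbered 0 to 1. Of all probe sets, 0.0721% were higher as deposited, 2.06% with array weights and 1.39% with arrays centred and without WT replicate 2. Genotypes were separate and lower in 5 genes as deposited, 2 with arrays centred and 1 after quantile normalization. They were so in 8 with arrays centred and without WT replicate 2. With an array left out it was 6 to 23, the most without WT replicate 1. Of all probe sets, 10.9% were separate and lower as deposited, 5.57% with arrays centred and 19.5% without WT replicate 1. Separate and higher genes numbered 0 as deposited, 5 with arrays centred and 5 after quantile normalization. They numbered 7 with arrays centred and without WT replicate 2, and 0 to 6 with an array left out. Of all probe sets, 0.779% were separate and higher as deposited, 4.22% with arrays centred and 5.98% without WT replicate 2. Where no share stands beside a count, it cannot be told whether the count is particular to histone genes. The looser count over all probe sets (unadjusted p under 0.05 and a fold of at least 1.5) was 360 as deposited, 200 after quantile normalization, 190 with arrays centred, 580 with array weights, 194 with arrays centred and without WT replicate 2, and 211 to 969 with an array left out. The median of the replication-dependent genes ran from -0.12 to 0.13 with an array left out, and the H1 class stood at 0.34 with array weights, which gave WT replicate 1 a weight of 4.67. Without WT replicate 2 the sign turned for Hist1h4b (0.96 to -0.0052), Hist1h2af (0.76 to -0.36), Hist1h4h (0.33 to -0.40), H2afx (0.11 to -0.20) and Hist1h3c (-0.05 to 0.23), and for Hist1h2bc, Hist4h4, H1f0 and H2afy3, which stood within 0.05 of 0 without it. The cause of these shifts was not tested, beyond the fewer arrays in the fits that leave 1 out.

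Same-numbered livers shared deviations only weakly, with correlations of 0.016, 0.13 and 0.27 for numbers 1, 2 and 3, so the numbers were not taken as pairs. With the replicate block 1 histone gene, Hist1h2ac, was lower at an unadjusted p under 0.05 in place of 2. HMGB2-KO replicate 1 correlated best with WT replicate 2, at 0.11, and HMGB2-KO replicates 2 and 3 with their own numbers. A filter on dim probe sets was not run, since centred values keep no brightness.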
